A study of Mus musculus with 4 samples.

Results

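The cells described here are dermomyotome and myogenic cells in the library of the E10.5 XY gonad region of the mouse. They were selected as cells of 1000 to 4000 genes and under 10% mitochondrial UMIs (retained cells) with at least 1 unique molecular identifier (UMI), which counts 1 captured mRNA molecule, of at least 2 of the genes Pax3, Myf5, Myod1, Myog, and Dmrt2. Selected cells numbered 295 of the 3837 retained cells of this library (7.69%, exact Clopper-Pearson 95% interval 6.86 to 8.58) and of 10987 retained cells in the 4 XY libraries used. Among them, 135 carried Myog (Myog-positive cells) and 160 did not (Myog-negative cells). The other cells of the library were 3282 with none of the 5 genes and 260 with exactly 1. Stricter selection gave fewer cells, 107 with at least 3 of the genes and 155 with at least 2 UMIs for each of 2 genes. Thinning cells to the same depth of 4007 UMIs gave 162, with shallower cells left out, 12 of the 295 among them.

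The study compared embryonic gonads with gonadal somatic cells induced from embryonic stem cells (ESCs), with 1 library for each condition. XY gonads of ICR embryos were taken at 3 stages, E10.5, then E11.5, then E12.5. The ESC-derived sample was taken at day 6 of culture (D6) from an XY line labelled C57BL/6J (N271S9C), which carries the transgenes Nr5a1-hCD27a and Sox9-2A-CGFP in the spelling of the labels. By the methods, dorsal mesenchymal tissue next to the gonads was included at E10.5, gonads of the later stages were freed of mesonephros, and D6 cells were enriched for Nr5a1-positive cells by magnetic sorting. A protocol label speaks of female tissue, but 55.7% of the retained E10.5 cells had a UMI of a Y-linked gene and 0.0521% had one of Xist. The retained cells of E10.5 held 32508523 UMIs, with a median of 8167 for each cell, and the median was 10031 in the selected cells and 8056 in cells with none of the 5 genes. With 1 library, cells were not replicates of a condition, so no test was made. Values in parentheses after a level or ratio are exact 95% intervals, which cover counting error only. Cells of 1 library cannot show the spread between embryos.

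The dermomyotome is the dorsal epithelium of the somite. Its cells carry Pax3, and those that enter the muscle lineage switch on the myogenic regulatory factors Myf5, Myod1, and Myog, stop dividing, and form the myotome, the first skeletal muscle of the body. Differentiating muscle cells then make the actins, myosins, troponins, and tropomyosins of the sarcomere, fuse with each other, and place acetylcholine receptors on their surface for the incoming motor nerve.

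Promoter sequences are shown for Myog, by which the cells were divided, and for 3 contractile or cytoskeletal genes that were high in the Myog-positive cells, Actc1, Mylpf, and Des. Each line gives the 150 bases before the transcription start in RefSeq, build GRCm38.p6, 5′ to 3′ on the strand of the gene. Capitals mark E-boxes (CANNTG, the letters to which myogenic regulatory factors can bind, read alike on both strands) and, in Actc1, a CArG box, the motif of serum response factor.
Myog: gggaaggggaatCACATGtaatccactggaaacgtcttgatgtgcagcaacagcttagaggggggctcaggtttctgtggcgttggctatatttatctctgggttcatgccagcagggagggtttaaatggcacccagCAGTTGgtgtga
Actc1: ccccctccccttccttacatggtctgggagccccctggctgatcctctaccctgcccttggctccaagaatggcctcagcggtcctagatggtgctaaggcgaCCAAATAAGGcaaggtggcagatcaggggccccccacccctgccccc
Mylpf: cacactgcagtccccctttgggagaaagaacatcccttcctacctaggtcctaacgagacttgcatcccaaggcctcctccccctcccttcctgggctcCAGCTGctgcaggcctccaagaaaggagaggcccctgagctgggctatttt
Des: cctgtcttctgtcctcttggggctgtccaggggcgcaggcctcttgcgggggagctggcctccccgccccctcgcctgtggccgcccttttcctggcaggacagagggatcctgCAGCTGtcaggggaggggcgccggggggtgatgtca

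The windows are chr1:134289854-134290003 on the plus strand for Myog, chr2:114052876-114053025 on the minus strand for Actc1, chr7:127211458-127211607 on the plus strand for Mylpf, and chr1:75360142-75360291 on the plus strand for Des. Of their bases, 15 for Myog and 12 for Actc1 lie in an annotated exon of the gene in GENCODE M21, and none for Mylpf and Des. The Myog window held 2 E-boxes of other central letters than CAGCTG, whereas those of Mylpf and Des held 1 CAGCTG each. Among all 32851 windows of 250 bases before a start, 4271 held CAGCTG and 66.2% held any CANNTG, of which CAGCTG is a part. For the sarcomere list described below, 34 of 41 genes were in the table, and 16 of their 41 windows (39.0%) held CAGCTG. The list of muscle calcium handling and energy genes had 10 of 18 windows with it (55.6%), that of dermomyotome regulators 3 of 23, and that of G2 and M phase genes 2 of 20 (10.0%). A CArG box was in 6 of the 41 sarcomere windows (14.6%) against 1.47% of all windows, and the MEF2 consensus likewise in 6 (14.6%) against 2.92%. In the calcium and energy list, 0 windows held a CArG box and 3 (16.7%) the MEF2 consensus. Each motif was in 1 window of the dermomyotome list (4.35%) and in 1 of the G2 and M phase list (5.00%). Genes with several starts have several windows, and a match describes letters only.

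The 5 genes that selected the cells are described first, without a test. Pax3, a transcription factor of the dermomyotome, was found in 218 of the 295 cells, Myf5 in 155, Dmrt2, a transcription factor of the dermomyotome, in 153, Myog in 135, and Myod1 in 62. The most frequent of 21 combinations was Pax3 with Dmrt2 alone, in 82 cells. It was followed by Pax3 with Myf5 in 37 cells and by these with Dmrt2 in 29, and then by Myod1 with Myog in 23. Most cells were thus taken in by a pair of genes, since 188 had exactly 2 of the 5, 82 had 3, 24 had 4, and 1 had all 5.

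**Figure D1:**
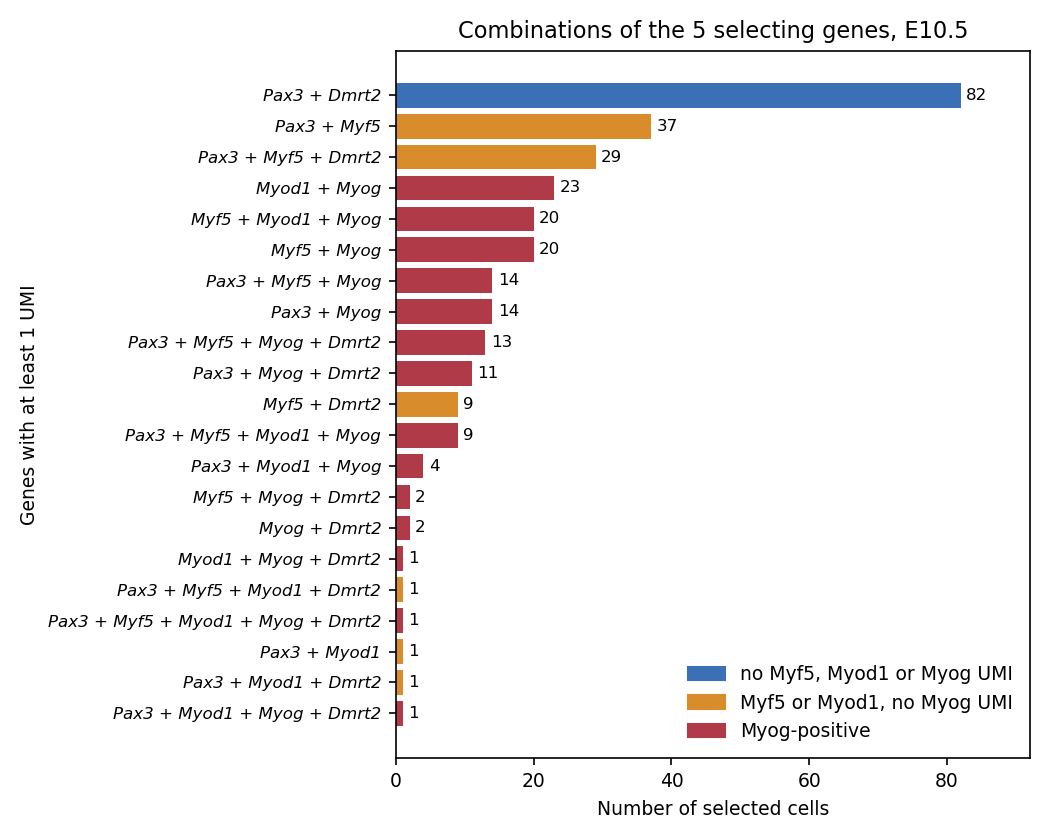
Number of the 295 selected cells (x axis) with each combination of the 5 selecting genes (y axis, genes with at least 1 UMI), colored by step. Pax3 with Dmrt2 leads with 82 cells, and the Myog-positive cells are spread over many smaller combinations.

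The selected cells fell into 3 steps by these genes. The 82 cells with Pax3 and Dmrt2 but no UMI of Myf5, Myod1, or Myog are called Pax3/Dmrt2 cells, the 78 cells with Myf5 or Myod1 but not Myog are called Myf5/Myod1 cells, and the 135 Myog-positive cells form the last step. Median UMIs for each cell were 9448, 10822, and 9971, so that the steps were of similar depth. Pax3 was found in 69 of 78 Myf5/Myod1 cells and in 67 of 135 Myog-positive cells, and Dmrt2 in 40 and 31 of them. Myf5 was in 76 of the 78 Myf5/Myod1 cells and in 79 of the 135 Myog-positive cells. Myod1 was found mainly in the last step, with 59 of its 62 cells among the Myog-positive cells. Myog itself reached 2206 CPM (UMIs of the gene per 1000000 UMIs of the group) in its positive cells, with a median of 8 and a maximum of 122 UMIs in a cell, but 37 of the 135 cells had only 1 UMI.

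In build mm10 with GENCODE M21, Pax3 lies at chr1:78101267-78197134 (minus strand), Myf5 at chr10:107482908-107486134 (minus), Myod1 at chr7:46376474-46379099 (plus), Myog at chr1:134289989-134292548 (plus), and Dmrt2 at chr19:25672411-25678991 (plus).

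At the edge of the rule, 27 of the 188 cells with 2 genes had just 1 UMI of each. Just outside it, 154 of the 260 cells with 1 gene had a single UMI of it. These 260 cells held Dmrt2 in 100 cases, Pax3 in 96, Myog in 40, Myf5 in 20, and Myod1 in 4. Free RNA can put UMIs into cells that do not express a gene. As a background for it, 73 cells with at least 3 of 8 endothelial markers (median 10238 UMIs) were used. Cells with at least 2 of the 5 selecting genes were left out of them, so the shares of these genes can understate the background. Of the 73 cells, 1 had Myog (1.37%), 1 had Dmrt2, and none had Pax3. Scrublet scores marked 10 of the 295 cells as doublets (3.39%) against 3.26% of the cells with none of the 5 genes. Of the barcodes of the selected cells, 1 was also in the E11.5 library and none in the others.

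In sums over cells, as given here, fewer cells with a gene and less RNA in each cell cannot be told apart, so counts of cells with a UMI are given beside the main values. Regulators of the dermomyotome and paraxial mesoderm that had no part in the selection were higher in the selected cells than in cells with none of the 5 genes. The 27 measured genes of this list summed to 1217 CPM (1178 to 1258) in the selected cells and 369 CPM (362 to 376) in the others, a ratio of 3.30 (3.17 to 3.43). Of the 8 that passed a filter of a mean of 20 CPM over both groups, 5 were at least 2-fold higher and none was 2-fold lower, where 2.76% and 2.17% of all 5428 genes that passed were higher and lower. Of the 8, 3 were under 20 CPM in the others and passed only through the selected cells. The median log2 ratio over all genes was -0.03.

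Tcf15, a basic helix-loop-helix factor needed for the epithelial somite, was at 373 CPM in the selected cells and 51.7 CPM in the others. Meox1, a homeobox factor of the somite, was at 323 and 92.4 CPM. Eya1, a transcriptional coactivator of the muscle lineage, was at 39.7 and 4.61 CPM. Uncx, a homeobox gene of the posterior side of each somite that is also on the list of sclerotome markers, was at 58.6 and 18.2 CPM. Pax7, a relative of Pax3, was under the filter with 20 UMIs in the selected cells and 1 UMI in the others, and Lbx1, a marker of muscle precursors that migrate to the limb, had only 1 UMI in the selected cells.

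Another derivative of the somite was used to see which of these regulators set the selected cells apart. Sclerotome cells were defined by at least 2 of Pax1, Pax9, and Nkx3-2, with the selected cells left out (119 cells, median 9936 UMIs). They had the list at 1352 CPM (1287 to 1420), above the 1217 CPM of the selected cells. Tcf15 (332 CPM) and Meox1 (465 CPM) were thus at similar or higher levels in sclerotome cells. Eya1 differed, at 3.34 CPM in sclerotome cells. Meox2 was the reverse, at 154 CPM in sclerotome cells and 29.1 CPM in the selected cells, and Pax1, which defined the sclerotome cells, was at 9.83 CPM in the selected cells. The 8 sclerotome markers include Uncx and the genes that defined the sclerotome cells. They summed to 112 CPM in the selected cells, where Uncx was the most abundant, and to 1093 CPM in sclerotome cells. Cells with none of the 5 genes had 137 CPM.

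Within the selected cells, the list was at 1301 CPM (1224 to 1382) in Pax3/Dmrt2 cells, 1541 (1457 to 1630) in Myf5/Myod1 cells, and 971 (919 to 1026) in Myog-positive cells. Of the 10 genes that passed the filter between Myog-positive and Myog-negative cells, 1 was at least 2-fold higher and 2 were 2-fold lower. Over all 5350 genes that passed, 6.21% were at least 2-fold higher and 2.24% at least 2-fold lower, with a median log2 ratio of -0.06. Tcf15 was at 531, 542, and 175 CPM in the 3 steps and found in 78 of 82, 74 of 78, and 70 of 135 cells. With each cell thinned at random to 4007 UMIs to set the depth equal, which kept 80, 75, and 128 cells, the shares were 86.2%, 78.7%, and 36.7%. Endothelial cells also had it, in 31.7% of 63 cells after thinning and at 88.5 CPM before it. Whether this came from free RNA or from expression in endothelial cells was not tested. Uncx was at 60.4, 94.8, and 35.9 CPM. Eya2, a relative of Eya1, was at 11.1, 16.2, and 48.6 CPM and was the gene that was higher, but at 13.6 CPM in Myog-negative cells it passed the filter only through the Myog-positive cells.

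Myogenic regulators beyond the selecting genes were higher in Myog-positive cells. The 28 measured regulators summed to 676 CPM in Myog-negative and 2667 CPM in Myog-positive cells. Of the 17 that passed the filter, 12 were at least 2-fold higher and none was 2-fold lower, but 9 of the 17 passed only through the Myog-positive cells. Among the other 8, Cdh15, Ncam1, a cell adhesion molecule, and Dag1, a receptor for the basement membrane, were at least 2-fold higher. Mef2c, which acts with the myogenic factors on muscle genes, was at 4.93 CPM in Pax3/Dmrt2 cells, 2.49 in Myf5/Myod1 cells, and 443 in Myog-positive cells. Its ratio between Myog-positive and Myog-negative cells was 119 (54.5 to 326), and it was found in 62 of the 135 cells.

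Myf6, the fourth myogenic regulatory factor, was at 12.3, 23.7, and 248 CPM in the 3 steps and at 0.476 CPM in cells with none of the 5 genes. Cdh15, the muscle cadherin, was at 17.3, 36.2, and 227 CPM. Both were thus present at low levels in Myog-negative cells, and Myf6 was there above its level in cells with none of the 5 genes. Vgll3, a cofactor of TEAD factors, was at 1.23, 13.7, and 159 CPM and its relative Vgll2 was 10.9-fold higher in Myog-positive than in Myog-negative cells. Rbm24, a splicing factor of muscle, and Smyd1, a methyltransferase that assists myosin assembly, had no UMI in the 160 Myog-negative cells and were at least 47.9-fold and 45.4-fold higher in Myog-positive cells, against a floor of 3 UMIs over the group.

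Contractile genes gave the largest difference in summed CPM between the steps among the 28 lists examined. The 41 genes of the sarcomere list summed to 824 CPM (763 to 889) in Pax3/Dmrt2 cells, 1312 (1234 to 1394) in Myf5/Myod1 cells, and 20380 (20139 to 20624) in Myog-positive cells. Cells with none of the 5 genes were at 989 CPM, and much of the sum in Myog-negative cells came from the tropomyosin genes Tpm1 (496 CPM), Tpm3 (276 CPM), and Tpm2 (185 CPM), which have isoforms outside muscle. The ratio of Myog-positive to Myog-negative cells was 19.1 (18.2 to 20.1). Of the 29 genes that passed the filter, 28 were at least 2-fold higher, but 25 of the 29 were under 20 CPM in Myog-negative cells and could pass only by being high in Myog-positive cells. Of the 4 that did not depend on this, Tnnt1, Tpm1, and Tpm2 were at least 2-fold higher, and Tpm3 was at 306 CPM in Myog-positive cells.

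Actc1, the cardiac-type actin that is also the first actin of embryonic skeletal muscle, was at 2.46, 24.9, and 3776 CPM in the 3 steps and was found in 2 of 82, 11 of 78, and 84 of 135 cells. After thinning, it was found in 1.25%, 10.7%, and 56.2% of cells, against 0 of the endothelial cells. Mylpf, a regulatory myosin light chain of fast muscle, was at 8.63, 9.98, and 2505 CPM. The Actc1 level of Myf5/Myod1 cells was thus above that of Pax3/Dmrt2 cells, whereas the intervals of Mylpf overlapped between them (3.47 to 17.8 and 4.31 to 19.7 CPM).

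Troponin genes followed the same division. Tnnc2, the calcium-binding troponin of fast muscle, had 1538 UMIs in 55 Myog-positive cells and none in the 160 Myog-negative cells, at least 619-fold higher against the floor. Tnnc1, Tnni1, and Tnnt2, forms of slow or cardiac muscle, were at 695, 1038, and 806 CPM in Myog-positive cells and at 1.24, 3.10, and 1.86 CPM in Myog-negative cells. Tnnt1 was the troponin with the highest level before Myog, at 13.6 CPM in Pax3/Dmrt2 cells and 48.6 CPM in Myf5/Myod1 cells, against 679.7 CPM in Myog-positive cells. Both fast and slow types were therefore present in the same group of cells.

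Other genes of the sarcomere differed in how many cells had them. Myh3, the embryonic myosin heavy chain, had 257 UMIs in 32 of the 135 Myog-positive cells and none in Myog-negative cells. Ttn, the giant elastic protein of the sarcomere, was in 67 cells at 609 CPM, and Neb, which sets the length of thin filaments, in 34 cells at 98.7 CPM. Des, the muscle intermediate filament, was more widespread, in 103 of the 135 cells at 637 CPM and in 19 of the 78 Myf5/Myod1 cells at 29.9 CPM. It was also at 54.2 CPM in cells with none of the 5 genes.

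**Figure D2:**
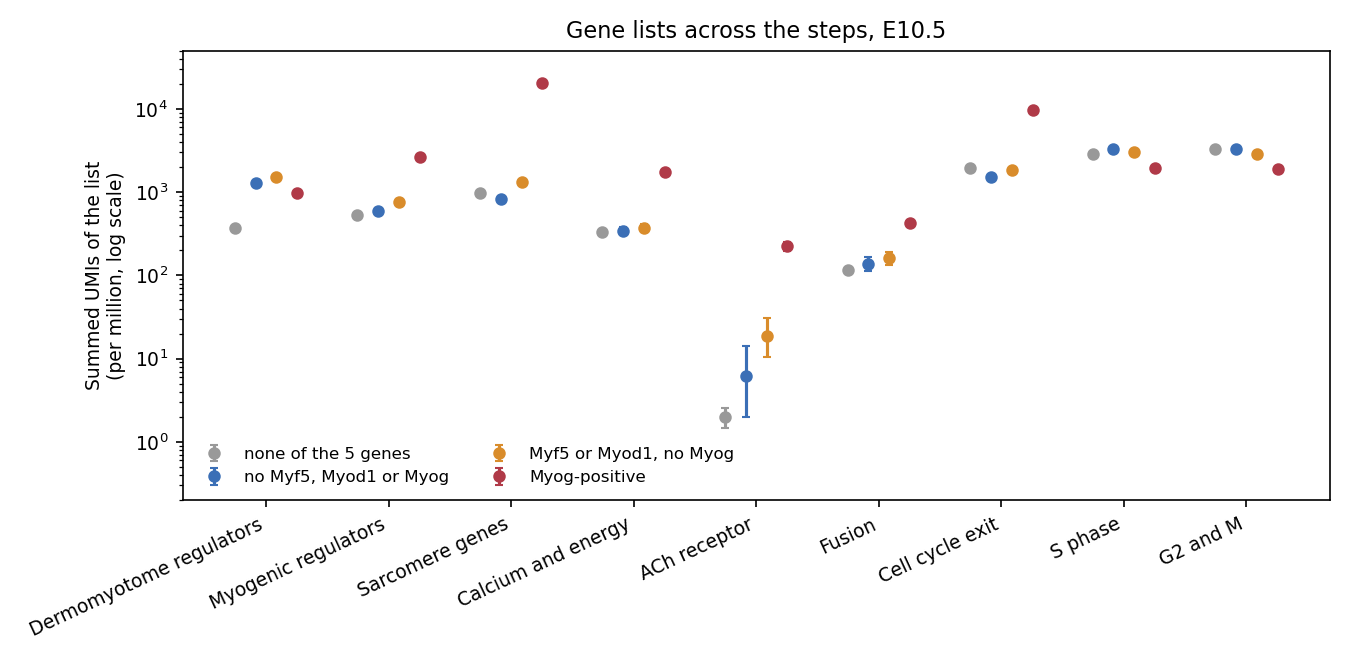
Summed CPM (y axis, log scale) of 9 gene lists in cells with none of the 5 genes and in the 3 steps of the selected cells. Points are sums over the cells of a group and bars are exact Poisson 95% intervals; the sarcomere list is at 824, 1312, and 20380 CPM over the steps and at 989 CPM in cells with none of the 5 genes.

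The summed levels of the lists of calcium handling and energy genes, acetylcholine receptor and synapse genes, and fusion genes were also higher in Myog-positive cells. Of 24 calcium and energy genes, 9 passed the filter and 8 were at least 2-fold higher, of which 6 passed only through the Myog-positive cells. Atp2a1, the calcium pump of fast muscle, was at 113 CPM against 3.72 in Myog-negative cells, and Pgam2, a glycolytic enzyme of muscle, at 215 against 0.62 CPM. Ckb and Eno3, enzymes of creatine phosphate and glycolysis, were at 277 and 678 CPM against 34.7 and 263 CPM.

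The 9 acetylcholine receptor and synapse genes summed to 6.16, 18.7, and 224 CPM over the 3 steps. The receptor subunits Chrna1 and Chrng, of which the second belongs to the fetal form of the receptor, were the 2 genes that passed the filter, through the Myog-positive cells alone, and had 91 and 83 UMIs in Myog-positive cells and none in Myog-negative cells. Of the adult subunit Chrne no UMI was found in the selected cells. The 12 fusion genes summed to 425 CPM in Myog-positive and 149 CPM in Myog-negative cells. Among the 3 that passed the filter, 2 were at least 2-fold higher, both only through the Myog-positive cells, and 1 was within 2-fold. The 2 were the fusogen genes Mymk and Mymx, at 142 and 94.2 CPM in Myog-positive cells, with 58 and 44 positive cells. Mymx had no UMI in Myog-negative cells, and Mymk had 6 UMIs in 3 Myf5/Myod1 cells.

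The cell cycle differed between the steps as well. The S phase list was at 3272 CPM (3149 to 3399) in Pax3/Dmrt2 cells, 3013 (2894 to 3135) in Myf5/Myod1 cells, and 1965 (1891 to 2042) in Myog-positive cells, and the G2 and M phase list at 3311 (3187 to 3439), 2899 (2783 to 3020), and 1877 (1804 to 1952). The ratios of Myog-positive to Myog-negative cells were 0.625 and 0.604. Of the single genes, 2 of 20 and 2 of 23 were at least 2-fold lower, against 2.24% of all genes, among them Rrm2, the ribonucleotide reductase subunit, and Kif11, a spindle motor.

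Of the inhibitors of cyclin-dependent kinases on the list of cell cycle exit genes, Cdkn1c and Cdkn1a were higher in Myog-positive cells. Cdkn1c (p57), an imprinted gene in the mouse, was at 283 CPM (248 to 323), 656 (601 to 714), and 7245 (7102 to 7391) over the 3 steps. It was found in 132 of 135 Myog-positive cells. Cdkn1a (p21), a second inhibitor of this family and a known target of Myod1, was at 46.8, 28.7, and 897 CPM and in 98 of the 135 cells. Cdkn1b (p27) and Cdkn2c (p18) were under the filter, with 10 and 0 UMIs in Myog-positive cells and 19 and 2 UMIs in Myog-negative cells. Among the D-type cyclins, Ccnd1 and Ccnd2 were at 60.6 and 245 CPM against 109.7 and 542 in Myog-negative cells, and Ccnd3, the form kept in muscle, was at 465 against 207 CPM. Of the 9 genes of the list that passed the filter, 5 were at least 2-fold higher and 1 was 2-fold lower, against 6.21% and 2.24% of all genes. Of the 5, Gadd45a, a growth arrest gene, was at 18.0 CPM in Myog-negative cells and passed only through the Myog-positive cells.

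**Figure D3:**
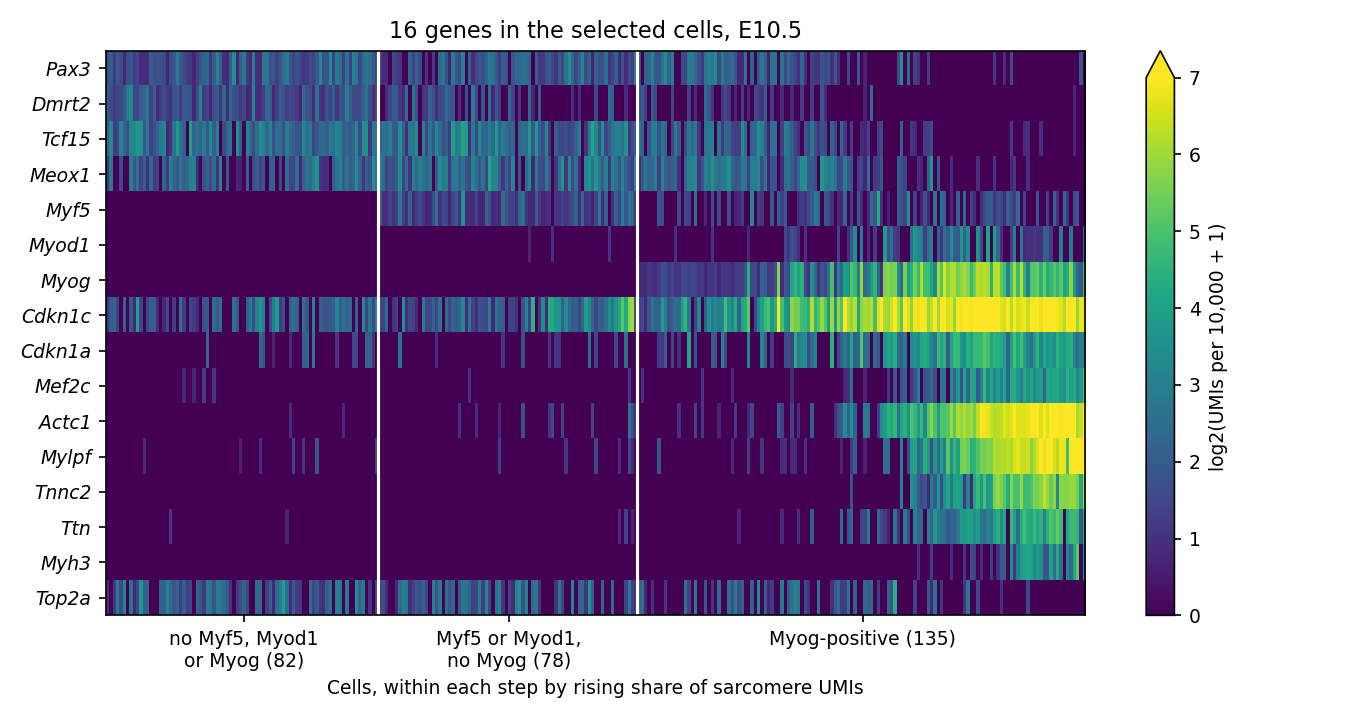
Level of 16 genes (y axis) as color (log2 of UMIs per 10,000 plus 1) in each of the 295 selected cells (x axis), grouped by step and ordered within each step by the share of sarcomere UMIs. Dark stretches of Myf5, Myod1, and Myog at left follow from how the steps were defined; toward the right edge Actc1, Mylpf, and Tnnc2 are high where Pax3, Tcf15, and Top2a are sparse.

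The Myog-positive cells varied widely among themselves. Their sarcomere share ran from 3.38 to 1007 UMIs per 10000 with a median of 62.4, and 55 of the 135 cells had at least 100. None of the 160 Myog-negative cells reached 100, with ranges of 1.05 to 27.6 in Pax3/Dmrt2 cells and 0 to 48.8 in Myf5/Myod1 cells. High shares were also found outside the selection. Cells with none of the 5 genes had a median of 8.44 but a maximum of 1118, and cells with Myog alone had a maximum of 1013. Across the 135 cells, the Myog and sarcomere shares had a Spearman rho of 0.74. It is given as a description, since the cells share a library and both shares have the same total in each cell. The relation was loose at the lower end. Cells with 1 Myog UMI had a median sarcomere share of 17.1 but 1 of these 37 reached 997, and 2 of the 22 cells with 2 to 4 Myog UMIs had at least 100.

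**Figure D4:**
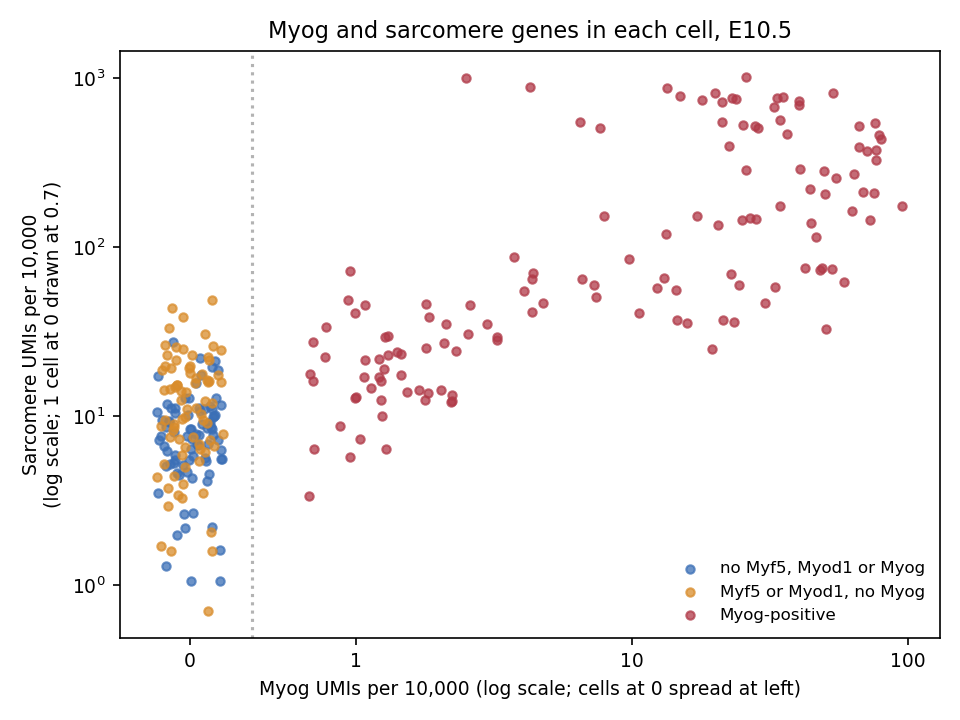
Myog UMIs per 10,000 (x axis, log scale, cells without Myog spread at the left) and sarcomere UMIs per 10,000 (y axis, log scale) in each of the 295 selected cells, colored by step. Cells above 100 on the y axis are all Myog-positive, and a few of them have little Myog.

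To describe this range, the Myog-positive cells were divided into 3 sets of 45 by their sarcomere share, so that sarcomere levels are used by the division and other genes are not. The sets had median depths of 9232, 10053, and 10574 UMIs. Pax3 was found in 39, 24, and 4 of the 45 cells from the lowest to the highest set, Dmrt2 in 23, 7, and 1, and Tcf15 in 38, 27, and 5. Myod1 was found in 4, 24, and 31, and Myf5 in 20, 31, and 28. Except for Tcf15, these genes were used by the selection, by which a Myog-positive cell had to carry another of the 5 genes, so their counts are descriptions. The 40 cells with Myog alone, whose median sarcomere share was 12.7, were left out by it. Meox1 and Tcf15, which the selection did not use, were at 447, 318, and 19.8 CPM and 385, 136, and 13.2 CPM in the 3 sets.

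The cell cycle lists and the inhibitors had different orders over these sets. The S phase list was at 2723 CPM (2570 to 2883), 2684 (2534 to 2840), and 527 (462 to 598) in the 3 sets, and the G2 and M phase list at 2615, 2426, and 626 CPM. Cdkn1c was at 1249, 7068, and 13162 CPM and Cdkn1a at 131, 818, and 1707 CPM. Between the lowest and the middle set, Cdkn1c thus differed while the S phase intervals overlapped, which did not hold when the cells were divided by Myog. Mymk was in 2, 14, and 42 of the 45 cells, Mymx in 0, 9, and 35, and Chrng in 0, 7, and 33. Mef2c, in 3, 16, and 43 cells, had the same order.

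A division into 3 sets of 45 by Myog per 10000 UMIs gave another picture of the cell cycle. The sarcomere list was at 2179, 24603, and 34144 CPM in these sets. The S phase list was at 2907 CPM (2752 to 3069), 2041 (1906 to 2183), and 992 (904 to 1086), and the G2 and M phase list at 2681, 1743, and 1222 CPM, so that here the middle set was already lower than the lowest. Myh3 and Acta1, the adult skeletal actin, were near 0 in the lowest set, and their intervals in the middle and highest sets overlapped.

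Wnt16 was the gene with the largest ratio among those named as lower in Myog-positive cells. This Wnt ligand was at 97.4 CPM (77.1 to 121) in Pax3/Dmrt2 cells, 63.6 (47.4 to 83.6) in Myf5/Myod1 cells, and 2.99 (0.815 to 7.66) in Myog-positive cells, 26.9-fold lower than in Myog-negative cells. Cells with none of the 5 genes had 3.18 CPM, so that its level was 14.3-fold higher in the selected cells. Nkd2, an inhibitor of Wnt signaling, was 6.56-fold lower in Myog-positive than in Myog-negative cells, Fez1 6.29-fold, and Igf1, a growth factor, 3.56-fold. Cthrc1, Pcolce, Col1a2, and Timp3, which are known from the extracellular matrix or its processing, were 3.40-fold, 3.18-fold, 2.86-fold, and 2.64-fold lower, but no list of such genes was compared. Twist1, a mesenchymal factor that can block myogenic factors, was at 109.7, 54.9, and 23.2 CPM over the steps.

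Few members of the signaling lists were measured well enough to pass the filter, and most of these were within 2-fold. Of 21 Notch genes, 5 passed the filter, of which Hes6 was 3.83-fold higher (3.11 to 4.75) and Hey1, a target of Notch, was 2.42-fold lower (1.52 to 3.98) in Myog-positive than in Myog-negative cells. Hes1 was at 96.5 and 80.6 CPM. The ligand Dll1 was under the filter with 27 UMIs in 24 Myog-positive cells and 13 in Myog-negative cells. Of 34 Wnt, Hedgehog, FGF, and BMP genes, 8 passed, and Grem1, an antagonist of BMP, was at 56.7, 32.4, and 16.5 CPM over the steps and 2.71-fold lower, the single gene past the limit. Within Myog-positive cells the list differed more, at 2244, 1803, and 942 CPM over the 3 sets by sarcomere share. Id2 and Id1, targets of BMP signaling whose products bind and inhibit partners of the myogenic factors, were at 696, 347, and 70.6 CPM and at 207, 151, and 48.5 CPM in these sets. Not all members had this order. Id3, the most abundant gene of the list, was at 880.0, 896, and 452 CPM, and Dusp6 was at 76.0, 105, and 163 CPM. Fgf4, a ligand of the myotome, had 14 UMIs in 11 Myog-positive cells, none in Myog-negative cells, and 1 in the 3282 cells with none of the 5 genes.

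Relative to cells with none of the 5 genes, the sarcomere list was at 9820 against 989 CPM. Of its 22 genes that passed the filter, 21 were at least 2-fold higher, of which 18 passed only through the selected cells. Mymk had 196 UMIs in the selected cells and none in the 3282 others, at least 605-fold higher against the floor. Ttn (278 against 0.366 CPM), Atp2a1 (53.2 against 0.0366 CPM), and Mybph, a myosin-binding protein (94.6 against 0.220 CPM), were also higher. Ankrd2, a stress-responsive protein of the sarcomere, and Arpp21 were on none of the lists, with 162 and 65.4 CPM against 0.403 and 0.293 CPM. Ankrd2 was at 0, 18.7, and 346 CPM over the steps and Arpp21 at 2.46, 21.2, and 130.1 CPM.

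Among the genes with the largest ratios that were lower in the selected cells were globin genes, with Hbb-y, the embryonic beta-type globin, at 34.9 against 7997 CPM. Barx1, a factor of stomach mesenchyme, had 1 UMI in the selected cells and 59.8 CPM in the others. Foxf1 and Hand1, factors of lateral plate mesoderm, were at 1.02 and 1.36 CPM against 59.5 and 57.3 CPM. Wt1, a factor of the coelomic epithelium and gonad, was at 4.74 against 69.6 CPM, and Bmp4 at 5.42 against 77.1 CPM. These ratios depend on what else the library held, since cells with none of the 5 genes are a mixture of types.

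Hox genes, whose numbers follow position along the body axis, were compared over 38 genes. Genes of numbers 6 to 9 summed to 848 CPM (815 to 882) in the selected cells, 742 (694 to 792) in sclerotome cells, and 690.2 (680.4 to 700.1) in cells with none of the 5 genes. Numbers 10 to 13 were at 32.9 (26.7 to 40.1), 55.1 (42.6 to 70.1), and 90.7 (87.2 to 94.4) CPM. Numbers 1 to 5 were also lower in the selected cells than in those with none of the 5 genes, at 237 CPM (220.0 to 255) against 310.3 (304 to 317), and were at 335, 246, and 173 CPM over the 3 steps. Among the steps, numbers 10 to 13 were at 55.5 CPM (40.5 to 74.2) in Pax3/Dmrt2 cells, 31.2 (20.2 to 46.0) in Myf5/Myod1 cells, and 20.2 (13.3 to 29.4) in Myog-positive cells. Numbers 6 to 9 had no steady order, at 959, 779, and 821 CPM over the steps.

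The direction differed between genes of the 4 clusters. Hoxa7 was at 236 CPM in the selected cells, 2.28-fold higher (2.09 to 2.48) than in cells with none of the 5 genes. Hoxc8 and Hoxc6 were 1.83-fold and 1.84-fold higher, at 227 and 109.8 CPM. By contrast, Hoxb4, Hoxb8, and Hoxb9 were 2.14-fold, 2.15-fold, and 2.32-fold lower, and Hoxd9 and Hoxc10 3.06-fold and 2.33-fold lower. In sclerotome cells, Hoxb8 and Hoxb9 were at 45.1 and 58.4 CPM, against 18.0 and 19.7 CPM in the selected cells. Hoxd1, under the filter, was at 13.9 CPM (9.97 to 18.9) in the selected cells and 2.01 CPM (1.52 to 2.62) in cells with none of the 5 genes.

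**Figure D5:**
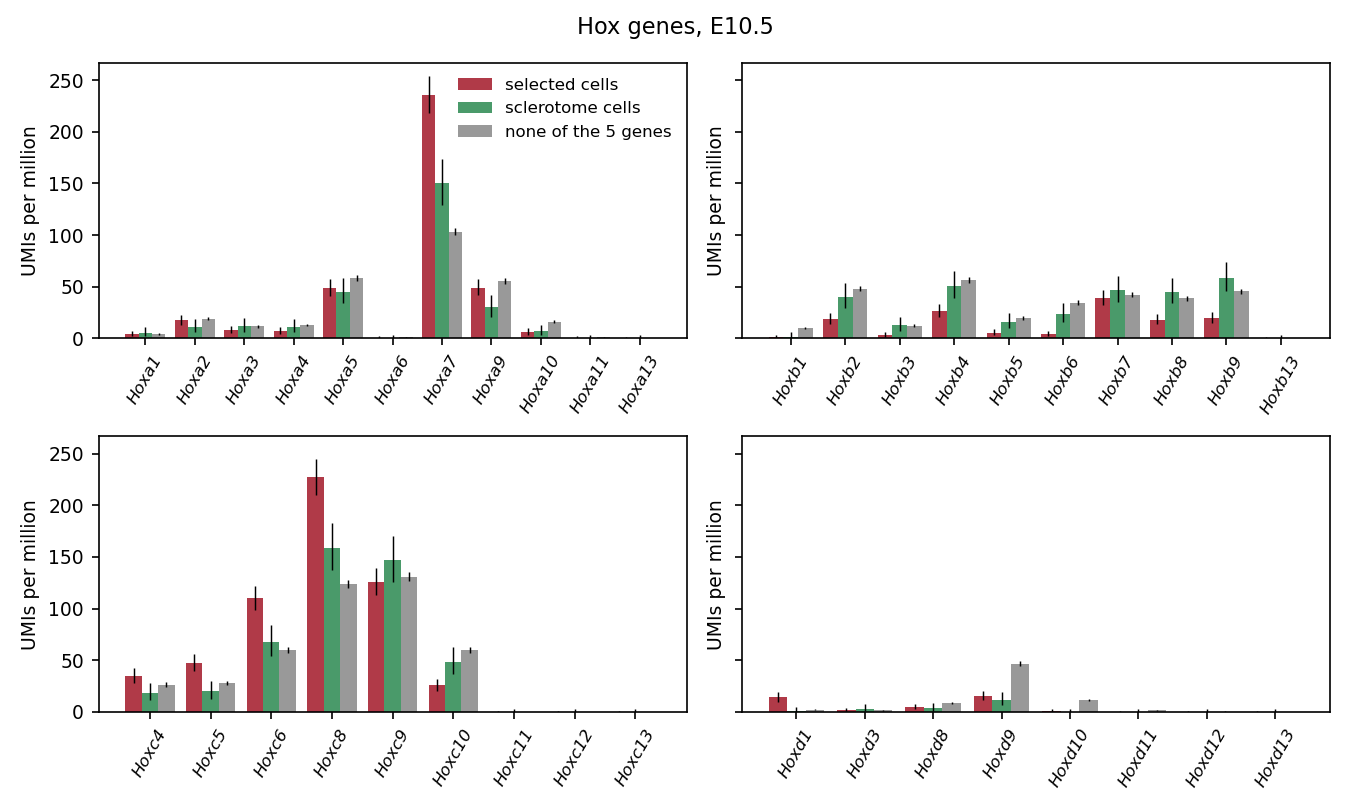
CPM (y axis) of Hox genes of clusters a to d in the 295 selected cells, 119 sclerotome cells, and 3282 cells with none of the 5 genes, with exact Poisson 95% intervals as bars. Hoxa7 and Hoxc8 are highest in the selected cells, at 236 and 227 CPM, and Hoxb9 is lowest in them.

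Markers of other cell types were examined in the same cells, and their part in the results was not tested except where a value is given. The smooth muscle list summed to 1555 CPM in Myog-positive cells, 17.4 in Myog-negative cells, and 139.6 in cells with none of the 5 genes. Of its 7 genes, 2 passed the filter, both only through the Myog-positive cells. Acta2, its most abundant gene, was at 1188 CPM in 64 of the 135 cells, and Tagln at 344 CPM in 53. In the 3 sets by sarcomere share, Acta2 was in 3, 17, and 44 of the 45 cells and reached 3290 CPM in the highest set, the same order as the contractile genes. Myh11, the defining myosin of smooth muscle, had no UMI in the selected cells and Myocd, its regulator, had 1. The cardiac list was at 519.7 CPM in Myog-positive and 4.34 CPM in Myog-negative cells, of which Myl4, also on the sarcomere list, made 443 CPM and Sln 64.3 CPM. In Myog-positive cells, 6 of its 11 genes were at 0, among them the cardiac factors Nkx2-5, Gata4, and Tbx5 and the natriuretic peptide gene Nppa.

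The neural list was at 292 CPM in Myog-positive cells, 104 in Myog-negative cells, and 305 in cells with none of the 5 genes. Its most abundant gene in Myog-positive cells was Tubb3, the neuronal tubulin, at 156 CPM in 40 cells, and 4 of its 11 genes were at 0, Sox1, Olig3, Wnt1, and Elavl3. The neurofilament genes Nefm and Nefl made up most of the remainder, at 77.0 and 52.3 CPM. Over the sets by sarcomere share, Tubb3 was at 6.91, 68.9, and 384 CPM, whereas Nefl was at 82.9, 71.2, and 4.41 CPM and Nefm at 89.8, 133, and 8.82 CPM. The limb and lateral plate list was lower in Myog-positive cells, at 120.4 against 221 CPM, and at 495 CPM in cells with none of the 5 genes. Of its 4 genes that passed the filter, Twist1, Prrx1, and Irx3 were at least 2-fold lower, and Prrx2, its most abundant gene in Myog-positive cells, was 4.05-fold higher at 42.6 CPM, having passed only through these cells. Tbx4, Tbx5, and Hand2 were at 0 in Myog-positive cells. The endoderm list was at 14.2 against 30.4 CPM, a ratio of 0.468 (0.26 to 0.809), with 7 of its 9 genes at 0 in Myog-positive cells, and none passed the filter. The endothelial list was at 18.7 CPM in Myog-positive and 22.9 CPM in Myog-negative cells, nearly all of it Egfl7, with Pecam1 at 0 in both. With the cells that had Myog alone added, the endoderm and endothelial lists turned to higher in Myog-positive cells, as given below. Macrophage markers had 1 UMI in the selected cells, germ cell markers 6, and the erythroid list was at 66.1 CPM against 17274 CPM in cells with none of the 5 genes. The neural crest list was at 37.4 CPM in Myog-positive and 15.5 CPM in Myog-negative cells, a ratio of 2.41 (1.46 to 4.07), and at 58.8 CPM in cells with none of the 5 genes. It had 4 of its 9 genes at 0 in Myog-positive cells, including Sox10 and Foxd3, with Erbb3 at 20.9 CPM. Coelomic and gonadal markers were at 13.9 CPM against 199 CPM, and the list of free RNA and dissociation genes was at 1072 CPM in Myog-positive and 934 CPM in Myog-negative cells, with Jun as its most abundant gene.

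In the other libraries, no cell met the selection rule. There were 0 of 2101 retained cells at E11.5, 0 of 2764 at E12.5, and 0 of 2285 at D6. The upper limits that such counts allow, 3 cells of the total, were 0.143%, 0.109%, and 0.131%, and cover counting error only. Cells with exactly 1 of the 5 genes numbered 6, 13, and 29. These libraries differ from E10.5 in the tissue taken, so that stage and dissection cannot be told apart. D6 also differs in strain, culture, sorting, kit, and depth. Its retained cells had a median of 4607 UMIs against 8167 at E10.5. With the E10.5 cells thinned to 4007 UMIs and shallower cells left out, 162 cells (4.69% of those kept) met the rule.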

How the data were processed

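Single-cell libraries were made with droplet 3′ kits (v2 in vivo, v3 for D6). Per the deposited files and labels, the authors made raw UMI counts with Cell Ranger against mm10; the processing notes name version 3.0.2 and a file header 6.0.0. From these counts, cells were retained by the limits on genes and mitochondrial UMIs in the methods. Barcodes of E10.5 numbered 4473, with 40199985 UMIs. Counts were summed over cells and given as CPM. Exact Poisson intervals were used for levels, conditional binomial intervals for ratios, and Clopper-Pearson intervals for shares. Genes with a mean of at least 20 CPM over both groups were compared, and 2-fold was judged after adding 0.5 UMI. Named genes were list members and the 15 with the largest ratio in each direction among those with at least 50 CPM and 50 UMIs in the higher group. Members and lists were chosen with earlier results of these data known. Of the list genes, 1 was not found and 1 with several identifiers was left out. The values of 1 further list gene are in the counts and sums of its list but are not reported here by themselves. Scrublet called 2 doublets automatically, so the 132 cells with the highest scores, ties included, were marked. The calculation was checked on group sums simulated as Poisson counts, the model that the intervals assume. With 200 of 5355 genes changed between Myog-positive and Myog-negative cells, the direction was right for 100.0% and intervals covered 96.6% of ratios. Spread between cells or embryos was not simulated, so the check does not cover it. Software was Python 3.11.15, scanpy 1.11.5, scipy 1.17.1, and edgeR 4.0.16 (scaling factors only). Alternatives were other filters, scaling, selection limits, thinning, doublet removal, and comparison cells.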

Additional observations from a re-analysis of the deposited data

Results flagged for a closer look

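Dmrt2 was found in single cells outside E10.5. It was in 4 of the 2101 retained cells at E11.5 (0.19%, 4 UMIs), in 5 of 2764 at E12.5 (0.181%, 5 UMIs), and in 27 of 2285 at D6 (1.18%, 30 UMIs). A floor of 3 cells would be 0.143%, 0.109%, and 0.131%. No background share was measured within these libraries, and whether free RNA contributed was not tested. None of these cells had a second of the 5 genes.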

How the results depend on the processing

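No paired analysis was possible because each condition had 1 library, and for the same reason no replicate could be left out. Genes under the filter of 20 CPM entered no count of genes past 2-fold, and their UMIs were few. The number of selected cells was 107 with at least 3 genes required, 155 with at least 2 UMIs of each gene, and 162 after thinning, or 2.79%, 4.04%, and 4.69% of cells. The last share is of the cells deep enough to be thinned. The share was 8.65% with all barcodes and 8.63% with a limit of 5000 genes. Myog-positive cells made up 71.0% with at least 3 genes and 33.2% with at least 2 Myog UMIs.

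Between Myog-positive and Myog-negative cells, with Myog called at 2 UMIs, the log2 ratios of list sums were -0.77 for dermomyotome regulators (main -0.55), 4.61 for sarcomere genes (4.26), -0.93 for S phase (-0.68), and 2.83 for cell cycle exit (2.53). With the 40 cells that had Myog alone added, an alternative chosen after seeing the data, they were -0.72, 3.99, -0.56, and 2.29, and -0.40 for G2 and M phase (-0.73). With all barcodes they were 3.95 for sarcomere, -0.57 for S, -0.51 for G2 and M, and 2.25 for exit, and the mean over cells gave -0.82 for G2 and M. All kept their direction.

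For the selected cells against cells with none of the 5 genes, dermomyotome regulators had 1.72, 1.63 with all other retained cells as comparison, 1.61 with all barcodes, and -0.15 with sclerotome cells, a comparison added after seeing the data, by which the direction turned. Sarcomere genes had 3.31, and 3.37 with TMM factors, 3.26, 3.22, and 3.36 in those settings. Hox genes had 0.10, and 0.15 with TMM factors, which shifted the median gene by 0.05 and 0.06 in the 2 comparisons. The share of genes past 2-fold was 8.45% and 4.94%, 31.2% and 28.9% without a filter, and 3.28% in the second with at least 50 CPM. Of the genes past 2-fold, 73.5% and 56.0% were higher; this was 57.0% in the first without a filter and 74.7% in the second with at least 50 CPM. Of 314 values for 45 other list results, 245 stayed within the counting interval and 14 turned in sign. With Myog alone cells added, the markers of endoderm (1.41), endothelium (0.84), nephric cells (0.27), and germ cells (-0.06) turned, and nephric markers also with all barcodes (0.23). With sclerotome cells as comparison, coelomic and gonadal (2.47), nephric (2.37), neural (1.45), endoderm (1.33), and free RNA genes (0.55) turned. The Wnt, Hedgehog, FGF, and BMP list, near 0 at 0.01, turned in 4 settings, to between -0.10 and -0.02. The cause was not tested.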
